A study of Mus musculus with 16 samples.

Results

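The 10 enzymes described here desaturate, lengthen or activate long-chain fatty acids, and they were read by symbol from the deposited table of mouse liver transcripts. All 10 symbols (Fads1, Fads2, Elovl1, Elovl2, Elovl3, Elovl5, Scd2, Acsl3, Acsl4 and Acsl5) matched 1 gene ID each among 35275 gene IDs. Liver RNA came from mice with an intact Zfp36l1 gene (WT) and from mice labelled as a liver knockout of it (L1 LKO, here LKO), each on a control diet (Ctrl) or an ethanol diet (EtOH). Each of the 4 groups held 4 libraries. Strain, sex, age, the Cre driver, the diets' composition and their duration were not given in the sources used here. Levels are FPKM, fragments scaled to gene length and to the library's counted total, so levels of different genes can be set side by side. Unless another fit is named, differences are log2 fold changes of FPKM + 1 from 1 limma fit over all genes kept. This main fit used all 16 libraries, FPKM as deposited, equal library weights and the group means as its only terms. A gene is called at a Benjamini-Hochberg adjusted p under 0.05.

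Dietary linoleic and alpha-linolenic acid reach arachidonic, eicosapentaenoic and docosahexaenoic acid through alternating desaturation and elongation in the endoplasmic reticulum. FADS2 and FADS1 introduce the double bonds, ELOVL5 and ELOVL2 add carbon pairs to polyunsaturated chains, and ELOVL1 and ELOVL3 lengthen saturated and monounsaturated ones. SCD2 makes monounsaturated acids, and the long-chain acyl-CoA synthetases ACSL3, ACSL4 and ACSL5 activate fatty acids for use. Liver is a main site of this synthesis, and SREBP-1c, LXR and PPARalpha are known regulators of several of the genes. ZFP36L1 binds AU-rich stretches in the 3′ untranslated region (3′ UTR) of messenger RNA and promotes its decay.

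Because ZFP36L1 binds AU-rich sequence, the longest annotated 3′ UTR of each enzyme was searched for the 7-mer TATTTAT on the sense strand. It occurred 2 times in Elovl3, once each in Elovl2, Elovl5 and Acsl4, and in none of the other 6. Across the 10523 kept genes with an annotated 3′ UTR, 29.1% held at least 1 copy, and the share with 2 or more is not given here. The stretches of 30 bases below are given because they differ between Elovl3, called between genotypes in the main fit, and the others with a match. Capitals mark the 7-mer, which overlaps itself by 1 base in Elovl3. Letters are those of the DNA sense strand in GENCODE M21 transcripts, 5′ to 3′, and positions are counted from the first base of the 3′ UTR.
Elovl3, position 255: taaaatggagtTATTTATATTTATatttag
Elovl2, position 2483: catcagaattaTATTTATacatattggtgg
Elovl5, position 1392: tgtgggtttgaTATTTATgtaaataccagt
Acsl4, position 1511: gtgctctaaaaTATTTATaaagaaattatt
A match is a description of the letters and not a bound site, and its bearing on the level of Elovl3 was not tested.

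Elovl5 and Elovl2 encode successive elongases of the same pathway and were lower together on ethanol in several fits below, so their promoters are shown side by side. RefSeq promoters (GRCm38.p6, 250 bases before to 50 after the start) were found for 7 of the 10 genes, 9 promoters in all, and not for Fads1, Elovl3 and Scd2. Both strands were searched. The E-box CACGTG occurred in Elovl5 only, and in 7.15% of 32851 promoters of the same length. CCAAT occurred in Acsl3, Acsl5, Elovl1 and Elovl5, and in 37.4% of all promoters. The sterol regulatory element TCACNCCAC occurred in 0 of 9 and in 1.24% of all. The direct repeats of AGGTCA with 1 or 4 bases between them, DR1 and DR4, occurred in 0 of 9 and in 0.0396% and 0.0152% of all. In the first sequence, capitals mark CACGTG, 161 bases before the start, and CCAAT read on the opposite strand as ATTGG.
Elovl5, plus strand of chr9:77917115-77917414: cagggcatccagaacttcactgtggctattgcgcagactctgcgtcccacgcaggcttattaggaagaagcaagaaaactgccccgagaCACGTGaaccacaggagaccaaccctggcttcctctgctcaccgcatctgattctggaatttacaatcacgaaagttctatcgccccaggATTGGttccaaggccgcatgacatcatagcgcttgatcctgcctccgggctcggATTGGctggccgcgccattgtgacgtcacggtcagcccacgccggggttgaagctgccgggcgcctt
Elovl2, minus strand of chr13:41220354-41220653: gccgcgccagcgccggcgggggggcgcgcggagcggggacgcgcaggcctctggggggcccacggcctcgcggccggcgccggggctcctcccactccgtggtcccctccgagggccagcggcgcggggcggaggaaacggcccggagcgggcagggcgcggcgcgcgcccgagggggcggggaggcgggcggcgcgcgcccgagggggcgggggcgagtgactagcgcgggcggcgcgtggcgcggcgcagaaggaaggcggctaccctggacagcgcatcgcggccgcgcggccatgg
RefSeq lists 2 overlapping promoters for Elovl2, of which the more upstream is shown. Neither held any of the 5 motifs, and they were 84.7% (shown) and 76.7% G and C, against 57.7% in the Elovl5 window.

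Of the 10 genes, 5 lie on chromosome 19 (GRCm38 coordinates, GENCODE M21): Fads2 at 10062765 to 10101746 on the minus strand, Fads1 at 10182888 to 10196877, Scd2 at 44293674 to 44306864, Elovl3 at 46131897 to 46135694 and Acsl5 at 55251938 to 55297720, the last 4 on the plus strand. The start sites of Fads1 and Fads2 are 81142 bases apart and point away from each other. Elovl1 lies on chromosome 4, Elovl2 on 13, Elovl5 on 9, Acsl3 on 1 and Acsl4 on X.

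Total reads were 19069903 to 24768569 in 15 libraries and 9890475 in library 2 of the WT ethanol group, which stood apart. The median of its Spearman correlations with other libraries over genes was 0.773, and this median was 0.931 to 0.941 for each of the others. Apob, an abundant hepatocyte transcript, was at 32.9 FPKM in it and at 245 to 445 elsewhere, and the summed red-cell transcripts were at 2160 against 100 to 286. Summed over 6 hepatocyte markers, Apob among them, this library was at 61766 FPKM, within the range of the others (41459 to 72487). Of the 10 enzymes, 6 were lower in this library than in any other, Scd2 was higher than in any other and 3 lay within the range. The main results for the 10 enzymes are therefore given with and without it. In the other 15 libraries the first component of variation within groups carried 40.1% of that variance. Libraries 1 and 2 of each group lay on one side of it and libraries 3 and 4 on the other, a split for which the labels give no name, and WT ethanol library 2 was not placed. Alb was at 23000 to 60924 FPKM in all 16 libraries, and summed adipocyte markers were at most 0.521. Zfp36l1 differed between LKO and WT by −2.77 on control and by −3.02 on ethanol on the log2 scale (limma adjusted p = 0.00148 and 0.000428), and was called on both diets without library 2 as well. Its 8 LKO libraries lay at 0.572 to 1.76 FPKM and its 8 WT libraries at 9.3 to 25.5.

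The 10 transcripts fell into 3 bands of level. Fads2 had the highest median, 348 FPKM over the 16 libraries, but its range (122 to 615) overlapped those of the next 4. The length recovered from its FPKM steps is 1508 bases, against a GENCODE exon length of 3295. Elovl5 (158), Acsl5 (141), Fads1 (137) and Elovl2 (124) followed at median levels whose ranges overlapped widely, so their order is not resolved. Elovl1 (15.6), Acsl4 (13.3) and Acsl3 (8.46) formed a lower band, and their ranges also overlapped. Elovl3 (2.89) and Scd2 (1.3) were lowest. All 10 passed the filter of at least 1 FPKM in at least 4 libraries, Scd2 by 14 and Elovl3 by 11 of the 16. Elovl3 and Scd2 rested on a median of 91 and 162 reads, and 2 WT ethanol libraries had no Elovl3 read, whereas Fads2 rested on a median of 12571.

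**Figure D1:**
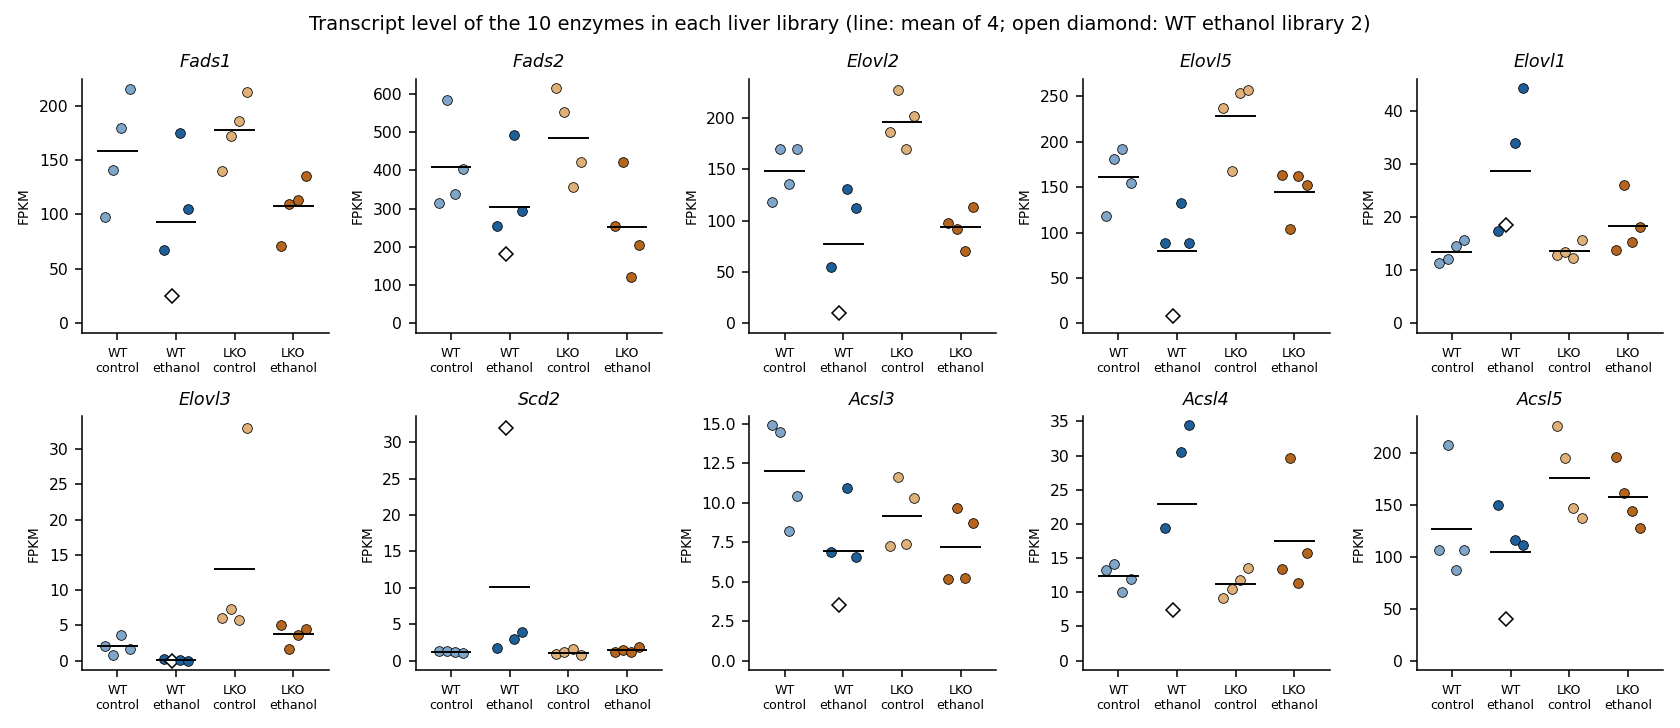
FPKM (vertical axes, linear, a scale for each gene) of the 10 enzymes in the 16 liver libraries by group, with a line at the mean of the 4 libraries of a group. The open diamond is WT ethanol library 2, at 8.4 FPKM for Elovl5 against at least 88 elsewhere and at 32 FPKM for Scd2 against at most 3.96 elsewhere.

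On the ethanol diet the transcripts moved in both directions. In the contrast averaged over genotypes, 7 of the 10 had a negative fitted difference and 3, Elovl1, Scd2 and Acsl4, a positive one. In the main fit only Elovl3 was called, with a difference of −1.36 (SE 0.303, limma adjusted p = 0.0107). This 1 of 10 stands against 7.78% of all 11298 genes called in that contrast. The count depended on the scaling and weighting of the same libraries: quantile scaling called 5 of 10 (Elovl2, Elovl3 and Acsl3 lower, Elovl1 and Acsl4 higher) against 12.9%. Median-of-ratios scaling called 8 of 10, with Fads1, Fads2 and Elovl5 added on the lower side, against 11.9%. Array weights, which are not a scaling and gave WT ethanol library 2 a weight of 0.0502, called 9 of 10, all but Acsl5, against 25.9%. Without WT ethanol library 2, 6 of the 10 were called against 20.5% of 11170 genes: Elovl2, Elovl3 and Elovl5 fell, and Elovl1, Scd2 and Acsl4 rose. With a term for the split within groups as well, 8 were called against 32.7%, with Fads1 and Fads2 added among those that fell. The sides were estimated from these same values, so the term lowers the spread by its construction, and calls gained with it are given as a description only. The median difference of the 10 was −0.66 with all libraries and −0.52 without library 2, beside 0.02 and 0.11 over all genes kept.

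Within WT alone, 0 of 10 were called in the main fit, against 4.18% of all genes, and 7 of 10 had an unadjusted p under 0.05, as did 19.7% of all genes. With the same libraries, quantile scaling called 1 (Elovl1, higher) against 8.25%. Median-of-ratios scaling called 2 (Elovl1, higher, and Elovl2, lower) against 6.77%. Array weights called 3 (Elovl1, Scd2 and Acsl4, all higher) against 15.3%. Without library 2, 3 of 10 were called (Elovl1, Scd2 and Acsl4, all higher) against 9.27%, and with the term for the split 5 of 10 against 19.7%, with Elovl3 and Elovl5 added, both lower. Within LKO, 0 of 10 were called in the main fit against 0.425%, with 2 of 10 at an unadjusted p under 0.05 beside 9.19% of all genes. Array weights called 2 there (Fads2 and Elovl2, both lower) against 9.89%. Without library 2, which enters the LKO contrast only through the shared spread, 1 of 10 (Elovl2, lower) was called against 3.67%, and with the term for the split 4 of 10 (Fads1, Fads2, Elovl2 and Elovl5, all lower) against 10.8%. In WT the calls across all genes were 292 higher and 180 lower, and 379 and 386 after median-of-ratios scaling. Without library 2 the median of all genes in the WT contrast was 0.17, so differences there are read against that shift.

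Groups without overlap give the same comparison without a model. Between WT diets, Elovl1 and Scd2 were higher and Elovl3 lower on ethanol in every library, 3 of 10 against 10.1% of all genes. Acsl4 joined them without library 2, giving 4 of 10 against 20.7%. Between LKO diets, Fads1, Elovl2, Elovl3 and Elovl5 were lower on ethanol in every library, 4 of 10 against 12.3%.

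**Figure D2:**
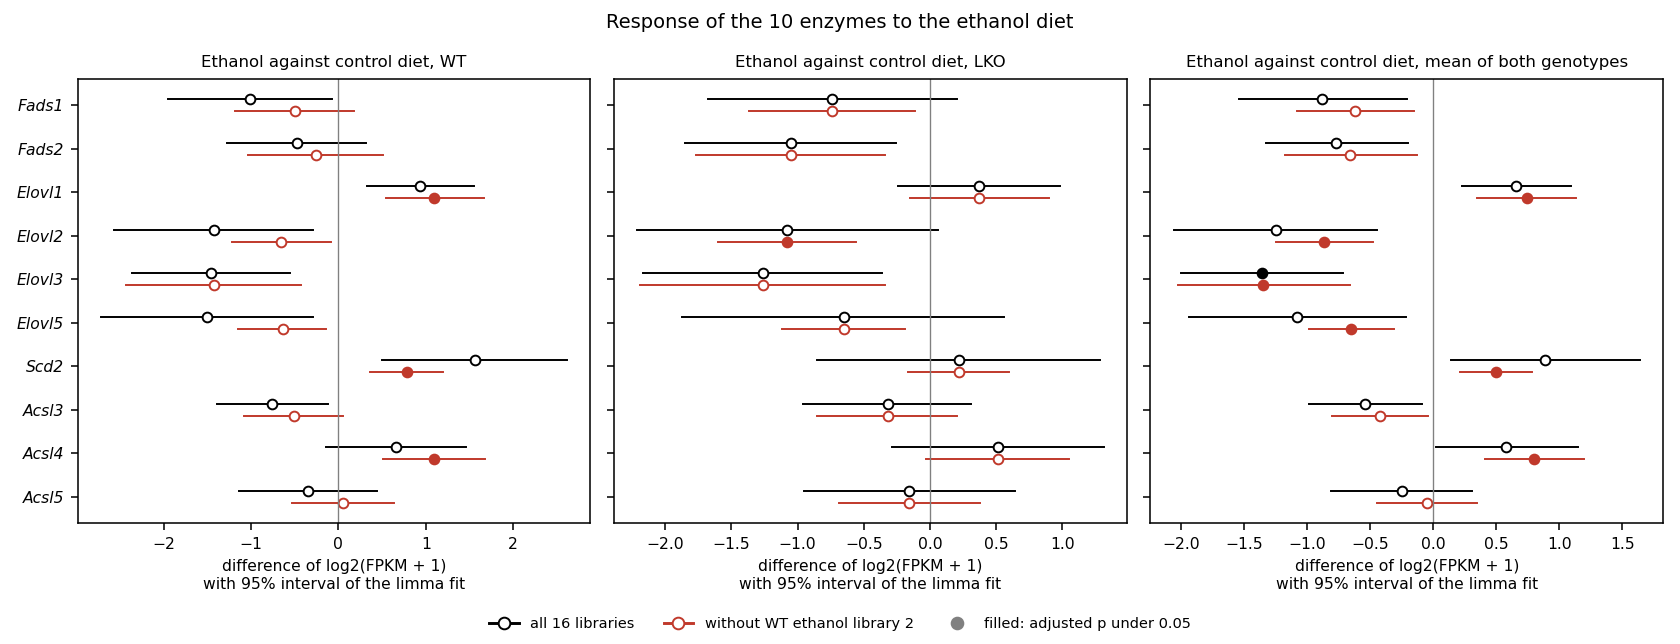
Differences of log2(FPKM + 1), ethanol minus control diet, with 95% intervals of the limma fit, for the 10 enzymes in WT, in LKO and averaged over genotypes. Black points use all 16 libraries and red points leave out WT ethanol library 2, and filled points passed the adjusted threshold. Elovl3 is the only filled black point, at −1.36 in the averaged contrast, and 6 red points are filled there.

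FADS1 and FADS2 are the delta-5 and delta-6 desaturases, with FADS2 taking the first step. Fads1 measured 97.5, 141, 179 and 215 FPKM in the WT control libraries and 66.9, 24.9, 175 and 105 in the WT ethanol libraries. The LKO livers held 140, 172, 186 and 212 on control and 71.4, 110, 113 and 135 on ethanol. The WT groups overlapped through ethanol libraries 3 and 4, at 175 and 105, whereas all 4 LKO ethanol libraries lay below the lowest LKO control. The LKO means were 177 ± 30.1 and 107 ± 26.3 FPKM (SD, n = 4 each), and the difference of −0.74 on the log2 scale was not called (limma adjusted p = 0.7). It was −0.74 with adjusted p = 0.0312 when library 2 was left out and the split was in the limma model.

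Fads2 measured 314, 584, 339 and 404 FPKM in WT on the control diet and 255, 180, 492 and 293 on ethanol. LKO values of Fads2 were 615, 552, 356 and 421 on control and 255, 421, 122 and 206 on ethanol. In LKO, ethanol library 2, at 421, was the one that reached into the control range. The LKO difference was −1.05 (limma adjusted p = 0.32) with all libraries and had adjusted p = 0.0942 without WT ethanol library 2. Averaged over genotypes, Fads2 had a difference of −0.77 and Fads1 one of −0.88 (limma adjusted p = 0.0901 and 0.1), and neither was called without library 2 in the model of groups alone (adjusted p = 0.071 and 0.057). Within the sides the WT difference of Fads2 was −0.75, with 1 ethanol library, and 0.04.

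The ratio of Fads2 to Fads1 within a library does not depend on how the library was scaled. It was 3.22 to 4.4 in the 7 libraries of side 1 and 1.08 to 2.81 in the 8 of side 2, with no overlap between these sides, and 7.23 in WT ethanol library 2, which has no side. The sides were drawn from a component computed over all genes, these 2 among them, so this is a description. Between groups, none of the 4 comparisons of the ratio passed an exact permutation test (log2 differences −0.81 to 0.55, exact p 0.257 to 0.714, adjusted over 8 tests 0.572 to 0.743). That test takes no account of the sides. Within side 2 the ratio was 2.81 and 2.8 in WT on ethanol against 1.9 and 1.88 on control, and 1.08 and 1.53 in LKO on ethanol against 1.92 and 1.99, with no overlap between diets. On side 1 the log2 differences for ethanol were 0.06 in WT, with 1 ethanol library, and −0.03 in LKO. Permuted within the sides, the mean differences were 0.32 and −0.31 (exact two-sided p = 0.167 for each, unadjusted), and 0.0556 is the smallest p this design allows.

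**Figure D3:**
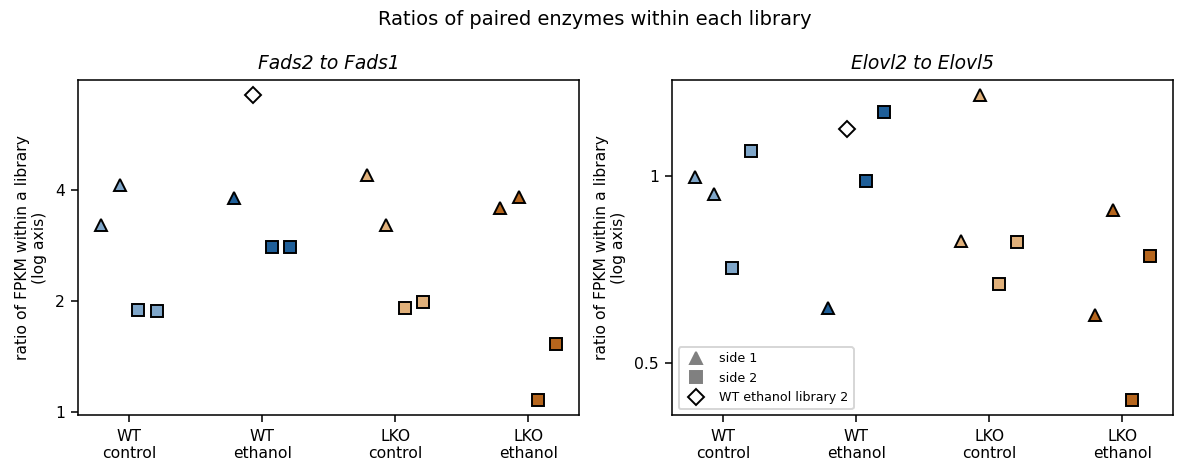
Ratio of FPKM within each library (vertical axes, log scale) for Fads2 to Fads1 and Elovl2 to Elovl5, by group. Triangles are libraries on side 1 of the split within groups, squares those on side 2, and the open diamond is WT ethanol library 2. All triangles in the left panel lie at 3.22 or above and all squares at 2.81 or below.

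ELOVL5 and ELOVL2 carry out consecutive elongations of polyunsaturated chains, ELOVL2 mainly the later one that leads to docosahexaenoic acid. Elovl2 measured 118, 170, 136 and 170 FPKM in WT on the control diet and 54.4, 9.96, 131 and 112 on ethanol. The LKO livers held 186, 227, 170 and 202 on control and 97.4, 92.1, 70.5 and 113 on ethanol. Every LKO ethanol library was therefore below every LKO control, and the means were 196 ± 24.3 on control and 93.2 ± 17.5 FPKM on ethanol (SD, n = 4 each), a ratio of 0.475. The LKO difference was −1.08 in both fits, with limma adjusted p = 0.59 when all libraries set the spread and 0.0256 without WT ethanol library 2. Averaged over genotypes it was −1.25 (adjusted p = 0.0532) with all libraries and −0.87 (adjusted p = 0.00402) without library 2. Within the sides the LKO difference was −1.11 and −1.05, and the WT difference −1.36, with 1 ethanol library, and −0.33.

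Elovl5 measured 118, 181, 192 and 155 FPKM in WT on the control diet and 88.8, 8.4, 133 and 88 on ethanol. In LKO it measured 237, 168, 254 and 257 on control and 163, 104, 162 and 152 on ethanol. The LKO groups did not overlap, but they were close at 168 and 163. The averaged difference was −1.08 (limma adjusted p = 0.117) with all libraries and −0.65 (adjusted p = 0.0111) without library 2. Within the sides the WT values were −0.72 and −0.67, and those of LKO −0.61 and −0.70. The 8.4 FPKM of library 2 was 0.0813 times the mean of the other WT ethanol libraries. The ratio of Elovl2 to Elovl5 ranged from 0.435 to 1.35 over the 16 libraries, and none of its 4 comparisons passed (exact permutation p 0.114 to 0.743, adjusted 0.572 to 0.743).

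Elovl1, which makes very long saturated and monounsaturated chains for sphingolipids, was at a higher level in every WT ethanol library than in any WT control. It measured 11.4, 12.2, 14.5 and 15.7 FPKM in WT on the control diet and 17.5, 18.6, 34.1 and 44.5 on ethanol, a ratio of means of 2.13 with no overlap. The LKO livers held 12.9, 13.6, 12.4 and 15.7 on control and 13.9, 26.2, 15.5 and 18.1 on ethanol, where the groups overlapped. The WT difference was 0.94 (limma adjusted p = 0.0779) with all libraries and 1.10 (adjusted p = 0.0197) without library 2. Within the sides of the split it was 0.52 on side 1, where 1 ethanol library was left, and 1.31 on side 2. The LKO difference was 0.37 in both fits (adjusted p = 0.817 and 0.453). The 3 libraries highest in Elovl1 (WT ethanol 4 and 3 and LKO ethanol 2, at 26.2 to 44.5 FPKM) were also the 3 highest in Acsl4, whose cell type markers are given below, and the part of other cell types in the Elovl1 values was not tested either.

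Elovl3 encodes an elongase of saturated and monounsaturated chains and is known in mouse liver for male-biased and circadian expression. It was the one enzyme called in the main fit. It measured 2.11, 0.84, 3.68 and 1.70 FPKM in WT on the control diet and 0.241, 0, 0.0276 and 0 on ethanol. LKO values of Elovl3 were 6.09, 7.26, 5.78 and 33 on control and 5.09, 1.62, 3.67 and 4.46 on ethanol. The WT ethanol values stood for 7, 0, 1 and 0 reads. A count of 0 allows up to 3 reads, or 0.203 FPKM in library 2 and 0.101 in library 4, for counting error only. Every ethanol library was below every control library of its genotype, and every LKO library was above every WT library on the same diet.

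Between genotypes, averaged over diets, Elovl3 was higher in LKO by 1.98 on the log2 scale (SE 0.303, limma adjusted p = 0.0112), 1 of 10 enzymes against 0.142% of all genes. The value was 1.97 without WT ethanol library 2 (adjusted p = 0.0126), again 1 of 10, against 0.859%. Fewer than 4 WT libraries reached 1 FPKM, so Elovl3 passed the filter only through the LKO livers. With no filter the averaged genotype difference was 1.98 and was not called (limma adjusted p = 0.091). With a pseudocount of 0.1 in place of 1 the averaged differences were 3.46 between genotypes and −2.61 for ethanol (limma adjusted p = 0.00164 and 0.00156), and the differences of 4.61 between genotypes on ethanol and −3.75 for ethanol in WT were called as well (adjusted p = 0.00369 and 0.00567). Most WT ethanol values lie below this pseudocount, so it largely sets the size of these differences. The last 2 were 2.08 and −1.46 with a pseudocount of 1. In the main fit Elovl3 was not called on either diet alone: the differences were 1.89 on control (adjusted p = 0.345) and 2.08 on ethanol (adjusted p = 0.0809). Array weights called it on both, at 1.78 on control and 2.25 on ethanol (limma adjusted p = 0.0159 and 0.0432). The fit to the compared groups only called it on ethanol (2.08, adjusted p = 0.0433) and not on control (1.89, adjusted p = 0.203). On ethanol the difference was 2.13 and called (adjusted p = 0.0415) without WT ethanol library 2 and with the split in the limma model. LKO control library 4, at 33 FPKM, lay far above the 5.78 to 7.26 of the other 3. Without it the LKO control mean was 6.38 ± 0.781 FPKM (SD, n = 3) in place of 13 ± 13.3 (n = 4). The averaged genotype difference was then 1.71 (adjusted p = 0.00139) and the averaged ethanol difference −1.08 (adjusted p = 0.00636). On the ethanol diet the genotype difference without it was 2.08 and was called (adjusted p = 0.00752), and the ethanol difference in LKO was −0.71 in place of −1.26, called in neither fit (adjusted p = 0.634 and 0.279). Within the sides the genotype difference was 1.68 and 2.09 on control and 1.69 and 2.32 on ethanol, and the ethanol difference was −0.95 and −1.81 for WT livers and −0.94 and −1.59 for LKO livers. The diet and genotype contrasts share their libraries, so they are not independent of each other.

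The libraries' own male-biased and clock transcripts varied beside Elovl3, in lists made after the values were seen. Summed over 8 male-biased liver genes, LKO control library 4 held 1455 FPKM and the other 15 libraries 70.9 to 481. Mup7, a major urinary protein of this kind, was at 169 FPKM in that library and at most 0.916 elsewhere, and Cyp4a12a at 6.23 and at most 0.238. The group medians of the male-biased sum were 159 and 133 FPKM in WT and LKO on control and 155 and 97.2 on ethanol, lower in LKO, where Elovl3 was higher. Summed over 4 female-biased genes the medians were 1046 and 1710 on control and 771 and 1910 on ethanol, higher in LKO, and LKO control library 4 was at 316. Xist was detected in all 16 libraries, at 6.62 to 49.4 FPKM, and the Y-linked Ddx3y was at 1.43 FPKM in WT ethanol library 2 and at most 0.0448 elsewhere. Dbp, an output gene of the circadian clock, was at 3.51 to 57.7 FPKM in WT control, 0.791 to 28.1 in WT ethanol, 33 to 58.6 in LKO control and 2.41 to 11 in LKO ethanol. Their part in the Elovl3 differences was not tested. Both averaged differences were called without LKO control library 4, as given above, but leaving out a library is not a test of that part.

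**Figure D4:**
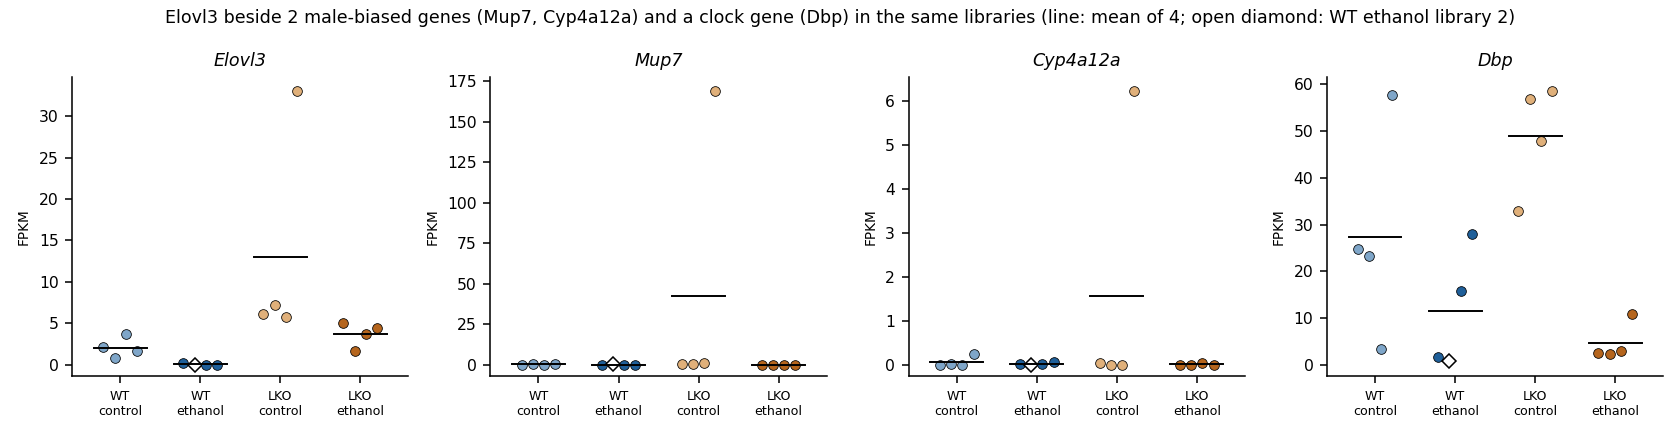
FPKM (vertical axes, linear) of Elovl3, the male-biased genes Mup7 and Cyp4a12a and the clock gene Dbp in the 16 libraries by group, with a line at the group mean and an open diamond for WT ethanol library 2. LKO control library 4 holds the highest value of all 4 genes, 33 FPKM for Elovl3 and 169 FPKM for Mup7.

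SCD2, a stearoyl-CoA desaturase that adult liver makes far less of than SCD1, was the least abundant of the enzymes by its median. Scd2 measured 1.33, 1.28, 1.19 and 1.02 FPKM in WT on the control diet and 1.69, 32, 3.04 and 3.96 on ethanol. The LKO livers held 0.93, 1.14, 1.56 and 0.743 on control and 1.19, 1.51, 1.12 and 1.87 on ethanol. The WT groups did not overlap. Library 2 set the size of the WT ratio of means, which was 8.45 with it and 2.41 without it. The WT difference was 1.56 (limma adjusted p = 0.0911) with all libraries and 0.78 (adjusted p = 0.0235) without library 2. Within the sides it was 0.22, with 1 ethanol library, and 1.09. After library 2 the highest Scd2 levels were in WT ethanol libraries 4 and 3, which were also the highest in summed stellate cell and fibroblast markers (190 and 186 FPKM, elsewhere at most 153), and the part of these cells in the Scd2 values was not tested. Scd1, a near relative on the same chromosome, was at 36.8 FPKM in library 2, its lowest of 16, and at 83.4 to 2529 elsewhere. How reads shared by Scd1 and Scd2 were counted is not given in the sources used here, so low Scd2 values are uncertain.

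ACSL4 prefers arachidonic and similar polyunsaturated acids, ACSL3 is linked to lipid droplets and ACSL5 is an abundant synthetase of liver and intestine. Acsl4 measured 13.2, 14.1, 10.1 and 11.9 FPKM in WT on the control diet and 19.4, 7.45, 30.5 and 34.4 on ethanol. In LKO it measured 9.12, 10.5, 11.8 and 13.6 on control and 13.4, 29.6, 11.3 and 15.7 on ethanol. Leaving out WT ethanol library 2 separated the WT groups, with a ratio of means of 2.27 and a difference of 1.09 (limma adjusted p = 0.0227), against 0.66 (adjusted p = 0.357) with it. Within the sides the WT difference was 0.47, with 1 ethanol library, and 1.48. In LKO the difference was 0.51 in both fits (adjusted p = 0.799 and 0.287), and ethanol library 2, at 29.6, stood above the other 3. The LKO values within the sides were 0.96 and 0.07.

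The 4 libraries highest in Acsl4 (WT ethanol 4, 3 and 1 and LKO ethanol 2, at 19.4 to 34.4 FPKM) were also the 4 highest in Cd68, a macrophage lysosomal protein (14.9 to 26.2 FPKM, elsewhere at most 9.33). They were the 4 highest in Lyve1 as well, an endothelial hyaluronan receptor (17.1 to 40.6 FPKM, elsewhere at most 13). Both markers were chosen after their values were seen, and other markers did not have this order: Adgre1, a macrophage surface receptor, was highest in LKO control library 2, at 11.8 FPKM, followed by WT control library 1, at 9.63. Summed over 7 endothelial markers the level was 54.7 to 109 FPKM in WT control, 16.3 to 93.4 in WT ethanol, 39.1 to 125 in LKO control and 46 to 108 in LKO ethanol. Summed stellate cell and fibroblast markers (8) were highest in WT ethanol libraries 4 and 3, at 190 and 186 FPKM, and at most 153 elsewhere. Summed neutrophil markers (6) had medians of 3.27 FPKM in WT control and 9.9 in WT ethanol, and of 4.29 in LKO control and 14.4 in LKO ethanol. Over all 8 macrophage markers the summed level was 123 to 375 FPKM in WT control, 166 to 371 in WT ethanol, 119 to 409 in LKO control and 75 to 424 in LKO ethanol, with no marker at 0 in a whole group. Clec4f, which defines Kupffer cells, ranged from 19.3 to 110 FPKM over the 16 libraries. The part of other cell types in the Acsl4 values was not tested, and in whole liver fewer cells of a type and less RNA per cell cannot be told apart.

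Acsl3 measured 14.9, 14.5, 8.18 and 10.4 FPKM in WT on the control diet and 6.87, 3.53, 10.9 and 6.53 on ethanol. The LKO livers held 7.25, 11.6, 7.38 and 10.3 on control and 5.19, 9.64, 5.24 and 8.74 on ethanol. Diet groups overlapped in both genotypes, and the averaged difference was −0.54 (limma adjusted p = 0.137), or −0.42 (adjusted p = 0.115) without library 2, and it was called after median-of-ratios scaling (−0.56, adjusted p = 0.0409). Acsl5 measured 107, 208, 86.9 and 107 FPKM in WT on the control diet and 150, 40, 116 and 111 on ethanol. LKO values of Acsl5 were 226, 195, 147 and 137 on control and 196, 161, 144 and 128 on ethanol. It gave the smallest averaged difference of the 10, −0.25 (adjusted p = 0.645, 95% interval −0.81 to 0.31), or −0.05 (adjusted p = 0.882, 95% interval −0.45 to 0.35) without library 2. In WT its direction turned without library 2, from −0.35 (adjusted p = 0.647) to 0.05 (adjusted p = 0.925).

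Apart from Elovl3, no enzyme was called between genotypes in the main fit. On the control diet 0 of 10 were called, against 0.00885% of all genes and 0.0358% without library 2, and 1 of 10 had an unadjusted p under 0.05 beside 3.45% of all genes. On ethanol 0 of 10 were called, against 0.0797% and 0.206%, and 3 of 10 had an unadjusted p under 0.05 beside 11.9%. The only enzyme whose genotype groups did not overlap was Elovl3, on both diets, against 9.25% of all genes on control and 2.69% on ethanol (7.01% without library 2). Elovl5 differed between genotypes on ethanol by 1.35 (limma adjusted p = 0.37) with all libraries and by 0.49 (adjusted p = 0.304) without library 2. Averaged over diets Elovl5 differed by 0.93 (adjusted p = 0.45) with all libraries and by 0.50 (adjusted p = 0.118) without library 2, and it was called, at 0.52 (adjusted p = 0.0322), with the split in the limma model as well. On ethanol Scd2 differed by −1.43 (adjusted p = 0.305) and −0.65 (adjusted p = 0.159), and Acsl5 by 0.72 (adjusted p = 0.467) and 0.31 (adjusted p = 0.529). Without library 2 the median of all genes in that contrast was −0.23. Array weights, with all libraries, called 1 of 10 on control, 3 on ethanol and 5 averaged over diets, Elovl3 in each. The shares of all genes were 3.88%, 4.41% and 14%. That fit called Scd2 on ethanol (−0.96, limma adjusted p = 0.0388). Averaged over diets it called Elovl5 (0.62, adjusted p = 0.0413) and Scd2 (−0.53, adjusted p = 0.0286).

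Whether the ethanol response differed between genotypes was tested by the interaction, which called 0 of 10 enzymes and 0% of all genes, with and without library 2. By limma 0 of 10 had an unadjusted p under 0.05 there, beside 3.2% of all genes. A call in one genotype and not in the other is therefore not shown to be a difference between them.

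Of the other genes of the pathway, the paralogs Scd1 and Elovl6 fell on ethanol in the averaged contrast, by 1.71 and 1.62 (limma adjusted p = 0.0469 and 0.0239), 2 of 5 tested. Across all genes 7.78% were called in that contrast, 519 higher and 360 lower, and 20.5% without library 2, 1645 higher and 645 lower. With all libraries the split was 662 higher and 678 lower after median-of-ratios scaling and 737 and 715 after quantile scaling. The list counts below are to be read beside these shares. Scd1 and Elovl6 were called without library 2 as well (adjusted p = 0.043 and 0.0209). Acsl1, the main synthetase for oxidation and storage in liver, had a difference of −1.21 (adjusted p = 0.0653), or −0.95 (adjusted p = 0.0509) without library 2. Of 12 transcriptional regulators, 4 fell and 1 rose. Srebf1, which encodes SREBP-1, had an averaged difference of −2.09 (adjusted p = 0.00113), with −2.27 in WT and −1.90 in LKO (adjusted p = 0.0133 and 0.0909). Without library 2 it was called in LKO too (adjusted p = 0.0177). Its levels were 40 to 114 FPKM in WT control, 5.22 to 29 in WT ethanol, 67.4 to 81 in LKO control and 11.5 to 35.1 in LKO ethanol. Insig1 and Insig2 both encode proteins that hold SREBP in the endoplasmic reticulum, and they moved in opposite directions, by −2.03 and 2.34 (adjusted p = 0.00313 and 0.00285), and both were called without library 2.

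Of 13 genes of peroxisomal chain shortening, which completes docosahexaenoic acid synthesis, 2 fell: Acaa1b, a thiolase (−1.44, limma adjusted p = 0.0231), and Abcd3, a fatty acid transporter of the peroxisome membrane (−0.89, adjusted p = 0.0435). Without library 2 both were called again, and Acox2, a peroxisomal oxidase of branched chains and bile acid precursors, rose by 1.12 (adjusted p = 0.000147). Of 10 genes for release and oxygenation of polyunsaturated acids, Pla2g12a, a secreted phospholipase A2, rose by 2.20 (adjusted p = 5.6e-05) and Cyp4f14, a fatty acid hydroxylase, fell by 1.47 (adjusted p = 0.00218), and both were called without library 2. Of 8 elongation partners and electron donors, 7 acyltransferases and 4 members of the SLC27 family, 0 were called in the main fit. Without library 2 the calls among them were 3 of 8 (Hacd1 and Hacd2 higher, Cyb5b lower), 1 of 7 (Lpgat1, higher) and 3 of 4 (Slc27a4 higher, Slc27a2 and Slc27a5 lower). No gene of these lists was called between genotypes in the main fit or without library 2. Medians of the lists in the averaged contrast ran from −1.21 for the paralogs to 0.07 for release and oxygenation, beside 0.02 for all genes.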

How the data were processed

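RNA of mouse liver was sequenced in 16 libraries, and the authors deposited 1 table of FPKM values. The submitters' processing notes name fastp, STAR 2.6.1, HTSeq, DESeq2 and the build mm10, with no roles or order, and strandedness is not given in the sources used here. Within a gene the values are whole multiples of 1 read (within 0.01 of a read), from which reads and totals were recovered. Symbols, positions and 3′ UTRs come from GENCODE M21 (GRCm38), where 34490 IDs had a symbol, and promoters from RefSeq on GRCm38.p6. The lengths behind the FPKM differ from the GENCODE exon lengths of these genes, so levels of different genes carry that uncertainty.

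Genes at 1 FPKM or more in at least 4 libraries were kept (11298, or 11170 without WT ethanol library 2). A group-means model was fitted to log2(FPKM + 1) with limma 3.58.1 in R 4.3.3 (eBayes with trend), with two-sided p-values adjusted over all genes kept. This scale understates changes of low genes. An alternative fit without WT ethanol library 2 had a term for the 2 sides of the split within groups, which was estimated from the same values. Ratios of 2 genes were tested by exact two-sided permutation over 70 arrangements, whose smallest p is 0.0286. Alternatives were a pseudocount of 0.1, no filter, quantile and median-of-ratios scaling, array weights, fits to the compared groups only and leaving out each library. The procedure was tested on simulated data.

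The members, gene lists, named-gene rule and alternatives were chosen with earlier results of these data known, and lists of sex-biased and clock genes, and the fit without both WT ethanol library 2 and LKO control library 4 and those with a block for title numbers, and the ratio tests within the sides, were added after seeing the values. The rule named all 10 members, Scd1, Elovl6, Acsl1, Srebf1 and Zfp36l1, and at most 3 called genes of each other list. Replicate numbers follow record order. Titles give each library its own number, but no label says that libraries of a group came from separate animals, so p-values may measure only the spread between these libraries. Summed cholangiocyte markers were 10.8 to 75 FPKM, lymphocyte 1.41 to 9.54, neutrophil 1.49 to 20.9, endothelial 16.3 to 125, stellate 17 to 190 and hepatocyte 41459 to 72487 over the 16 libraries.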

Additional observations from a re-analysis of the deposited data

Results flagged for a closer look

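In groups of 4, a library was set apart when its gap to the nearest other, divided by the group's range, passed Dixon's 95% critical value for 4 samples. This held for 4 of the 40 groups of 4 libraries, and chance gives about 1 in 20. Elovl3 in WT ethanol library 1 was at 0.241 FPKM, above 0 to 0.0276 in the other 3, a difference of 7 reads against at most 1. Elovl3 in LKO control library 4 was at 33 FPKM against 5.78 to 7.26. Scd2 in WT ethanol library 2 was at 32 FPKM against 1.69 to 3.96. Acsl5 in WT control library 2 was at 208 FPKM against 86.9 to 107.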

How the results depend on the processing

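Titles give each library a number of its own, and no label says that these numbers pair libraries. Pairing the control and ethanol libraries of a genotype so that the summed difference of their numbers was smallest (1 to 10 within a pair), an alternative chosen after seeing the data, the correlations of deviations from group means were 0.23 to 0.45 in 7 of the 8 pairs and −0.06 in the one that holds WT ethanol library 2. With such pairs as a replicate block, the averaged ethanol count was 2 (Elovl1 added), against 8.34% of all genes. Without WT ethanol library 2 the replicate block gave 4 in WT, 4 in LKO and 8 in the averaged contrast (Fads1 and Fads2 among the last, at −0.64 and −0.57), against 12.3%, 7.14% and 26.1%, and Acsl5 reversed to 0.32 in WT and 0.08 averaged. No block can be fitted to the genotype contrasts, since each pair lies within 1 genotype. The call of Elovl3 in the averaged ethanol contrast held in all 25 alternatives, and its call in the averaged genotype contrast in all but the fit with no filter (1.98, adjusted p = 0.091). Counts of enzymes called depended on the setting, as did the share of all genes called, which is given in brackets. In WT, where 0 of 10 were called on ethanol, the count was 1 with a pseudocount of 0.1 (3.41%), with quantile scaling (8.25%) and with the compared groups only (0.513%), 2 with median of ratios (6.77%), 3 with array weights (15.3%), 5 without WT ethanol library 2 with the side as a term (19.7%) and 4 without that library and LKO control library 4 (8.36%). In LKO, where 0 were called, it was 2 with array weights (9.89%), 1 with the compared groups only (2.2%) and 4 with the side as a term (10.8%). The genotype count on control was 1 with array weights (3.88%). On ethanol it was 3 with array weights (4.41%) and 1 each with a pseudocount of 0.1 (0.062%), with the compared groups only (0.0266%), with the side as a term (1.54%) and without both libraries (0.171%). The averaged ethanol count, 1 in the main fit, was 5 with quantile scaling, 8 with median of ratios and 9 with array weights. It was 8 with the side as a term and 6 without both libraries. The shares of all genes were 12.9%, 11.9%, 25.9%, 32.7% and 16.9%, in that order, in place of 7.78%. The averaged genotype count of 1 (0.142%) became 0 with no filter (0.0205%), 5 with array weights (14%) and 2, Elovl3 and Elovl5, with the side as a term (11.1%). Leaving out 1 library gave 0 to 3 in WT (3 without WT ethanol library 2, 2 without WT ethanol library 1, 1 without LKO control library 4, against 9.27%, 8.28% and 3.42%) and 0 to 1 in LKO (1 without WT ethanol library 2, against 3.67%). It gave 0 to 2 between genotypes on ethanol (2 without WT ethanol library 1, 1 without LKO control library 4 or LKO ethanol library 2, against 3.47%, 0.107% and 0.366%). It gave 1 to 6 in the averaged ethanol contrast (3, 6, 4 and 2 without WT ethanol library 1, 2, 3 and 4, against 9.74%, 20.5%, 7.58% and 6.71%). Array weights gave WT ethanol library 2 a weight of 0.0502. Acsl5 in WT reversed to 0.14 with the side as a term and 0.05 without both libraries, and its range over left-out libraries was −0.57 to 0.05. The log2 ratio of Fads2 to Fads1 ranged from −0.58 to 0.02 for ethanol in LKO and from −0.19 to 0.27 between genotypes on control. That of Elovl2 to Elovl5 ranged from −0.05 to 0.30 for ethanol in WT, where it was −0.16 within the sides in place of 0.08, and from −0.31 to 0.03 between genotypes on control. The cause of these changes was not tested, apart from the fewer libraries or genes that a setting uses. Elovl3 and Scd2 rest on few reads, which limits their precision.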
